A study of Homo sapiens with 6 samples.

Results

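The 8 genes described here encode transcriptional regulators of the E2F, RB-family and MuvB cell-cycle programs: E2F1, E2F2, E2F7, E2F8, TFDP1, RBL1, MYBL2 and FOXM1. They were taken by name from the authors' deposited comparison, in which all 8 appear among the 6831 genes listed. MOLM-13 is an established line of human acute myeloid leukaemia that carries a fusion of KMT2A (MLL). Its cells, labelled wild type, received either 50 nM DEG-35 or the solvent DMSO, and RNA was taken 24 h later. DEG-35 is named in the study's title as a dual degrader of IKZF2, a zinc-finger transcription factor, and of CK1A, the kinase encoded by CSNK1A1, and the study asked which genes it regulates. Each group had 3 RNA-seq libraries.

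For each gene the authors' deposited table has 3 measures, the log2 fold change with its raw and adjusted p, and only genes under an adjusted p of 0.05 are in it. Its columns do not say which group is the numerator. Fold changes are read here as DEG-35 over DMSO, and every direction turns round if the order was the other. Per-library values were not analysed here, so the depth and the spread over libraries are unknown. The error given is a standard error (SE) worked back from the p and the fold change. Nothing in the labels tells whether the libraries are separate cultures, and p-values then measure only the spread between these samples, which may be technical. Levels were not available to check the cell line against its markers. Of 10 genes of leukocytes and myeloid cells, among them FLT3, CD33, MPO and CSF1R, 8 were listed, 7 higher and 1, MPO, lower. Over all tested genes 45.3% were listed, 21.4% higher and 24.0% lower. The part of these 10 genes in the results below was not tested.

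The activating E2F proteins bind DNA with a DP partner and switch on the genes of S-phase entry. While pocket proteins of the RB family are bound to these E2Fs, those genes are silenced. In resting cells the pocket proteins p107 (RBL1) and p130 (RBL2) join E2F4 or E2F5, DP and the MuvB core in the repressive DREAM complex. In cycling cells the same MuvB core first recruits MYBL2 (B-MYB) and then FOXM1, and so switches on the genes of G2 and mitosis. Many of these factors are themselves transcribed from E2F-controlled promoters, and the program is known to run high in proliferating leukaemia cells.

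All 8 genes were lower with DEG-35. Their log2 fold changes in the authors' deposited table ran from -2.66 to -1.21 with a median of -2.22, against a median of -0.45 over all 3613 lower genes. In linear terms 15.9% to 43.1% of the DMSO level was left. An adjusted p below 0.05 was reached with a lower value by 24.0%, and with a higher one by 21.4%, of the 15064 genes whose testing the adjusted p-values imply. A fall of at least 1 on the log2 scale, which all 8 showed, was reached by 4.08%. All 8 were also among the 19.7% of genes lower at an adjusted p below 0.01 and the 12.0% lower after Bonferroni adjustment over 15064 tests. The 8 genes were chosen with earlier results of these data known. Their falls beside these shares and the median of -0.45 are therefore no independent evidence about them. Whether a culture held fewer dividing cells or each cell less of the RNA cannot be told apart in bulk libraries.

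**Figure D1:**
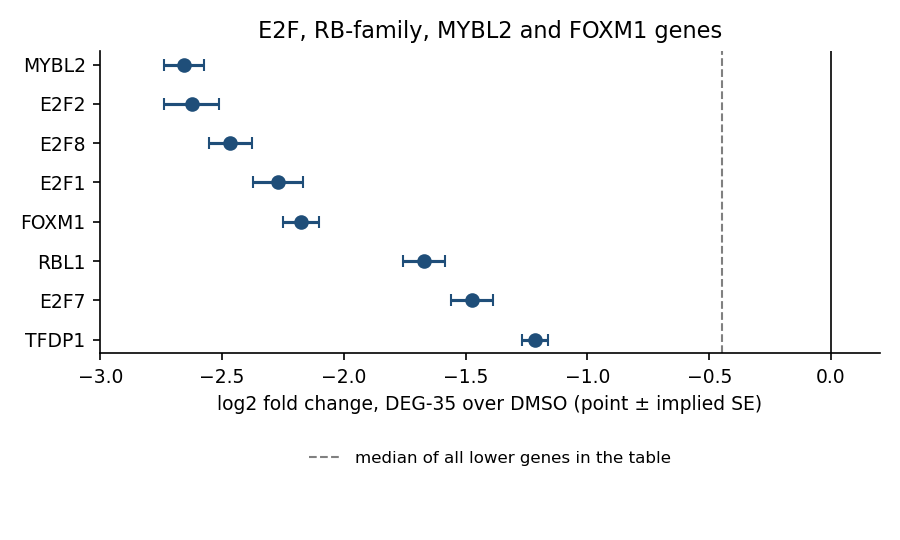
Log2 fold change of each of the 8 genes (x axis, DEG-35 over DMSO, 3 libraries per group), ordered by size. Points are the authors' deposited values and bars the implied SE. The dashed line is the median of all lower genes at -0.45, and all 8 genes lie to its left, from -2.66 for MYBL2 to -1.21 for TFDP1.

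Among the activating E2Fs, E2F1 and E2F2 fell steeply. E2F2 stood at -2.62 ± 0.113 (log2 fold change ± implied SE) in the authors' deposited table, 6.17-fold lower, with an adjusted p of 5.19e-117. E2F1, which can drive both S-phase entry and apoptosis, stood at -2.27 ± 0.103 there, 4.82-fold lower, with an adjusted p of 1.73e-106. E2F3, the other activator and not one of the 8 genes, was at -0.31 ± 0.0651 in the authors' deposited table (adjusted p = 8.11e-06), 1.24-fold lower. The activators therefore spanned a range from 16.2% of the DMSO level for E2F2 to a change in E2F3 that would all but vanish, at -0.012, if all fold changes were shifted up by 0.3. E2F2 lay 0.35 below E2F1 on the log2 scale, with a 95% interval of the difference from -0.65 to -0.05.

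The atypical E2Fs, E2F7 and E2F8, carry a pair of DNA-binding domains, need no DP partner and repress E2F target genes. E2F8 stood at -2.47 ± 0.0902 in the authors' deposited table, 5.52-fold lower (adjusted p = 2.25e-162). E2F7 stood at -1.47 ± 0.0875 there, 2.78-fold lower (adjusted p = 7.37e-62). E2F7 is known in human cells as a gene that p53 can induce. Its value here was a fall, and the part of p53 in that value was not tested. E2F8 lay 0.99 further down than E2F7 on the log2 scale, with a 95% interval of the difference from -1.24 to -0.75.

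TFDP1 encodes DP1, the partner with which E2F1 and E2F2 bind DNA. It stood at -1.21 ± 0.0536 in the authors' deposited table, 2.32-fold lower, with an adjusted p of 8.79e-112. This was the smallest fall of the 8 and the most precisely determined. E2F1 lay 1.06 below TFDP1 on the log2 scale, with a 95% interval of the difference from -1.28 to -0.83, so the mRNA of the partner fell less than that of the E2F.

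RBL1, the pocket protein p107, is both a repressor of E2F targets and an E2F target itself. It stood at -1.67 ± 0.0856 in the authors' deposited table, 3.19-fold lower (adjusted p = 5.48e-83). RB1, the retinoblastoma protein, was at -0.47 ± 0.0734 in the same authors' deposited table, 1.38-fold lower (adjusted p = 1.47e-09). RBL2, the pocket protein most tied to resting cells, was not listed, which means that it did not pass or was not tested.

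MYBL2 and FOXM1 act on the MuvB core in succession. MYBL2 stood at -2.66 ± 0.0839 in the authors' deposited table, 6.30-fold lower, with an adjusted p of 2.80e-217. FOXM1, the forkhead factor of the G2/M program, stood at -2.18 ± 0.0747 there, 4.52-fold lower, with an adjusted p of 2.25e-184. These were the smallest adjusted p-values of the 8 genes. MYBL2 lay 0.48 below FOXM1, with a 95% interval of the difference from -0.70 to -0.26.

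In order of fall the genes ran MYBL2, E2F2, E2F8, E2F1, FOXM1, RBL1, E2F7 and TFDP1. Of the 7 steps between neighbours in that order, 5 had a 95% interval that includes 0. The other 2 were the step from FOXM1 to RBL1, at -0.51 with an interval from -0.73 to -0.28, and that from E2F7 to TFDP1, at -0.26 with an interval from -0.46 to -0.06. MYBL2, E2F2, E2F8, E2F1 and FOXM1 thus had falls beyond 2 on the log2 scale, and RBL1, E2F7 and TFDP1 smaller ones. The intervals treat the values of a pair of genes as independent, although both come from the same libraries.

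Among the 3613 lower genes of the table, ordered by log2 fold change, MYBL2 held place 19 and E2F2 place 26. E2F8 was at place 62, E2F1 at 105 and FOXM1 at 128. RBL1 was at place 287, E2F7 at 363 and TFDP1 at 468, so all 8 lay within the top 13.0% of falls. These places describe genes chosen with earlier results of these data known and are no independent evidence about them. Many genes above them were imprecisely measured: among the 3352 lower genes whose implied SE did not exceed 0.2, or whose p was 0, MYBL2 moved up to place 6 and E2F2 to place 13.

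**Figure D2:**
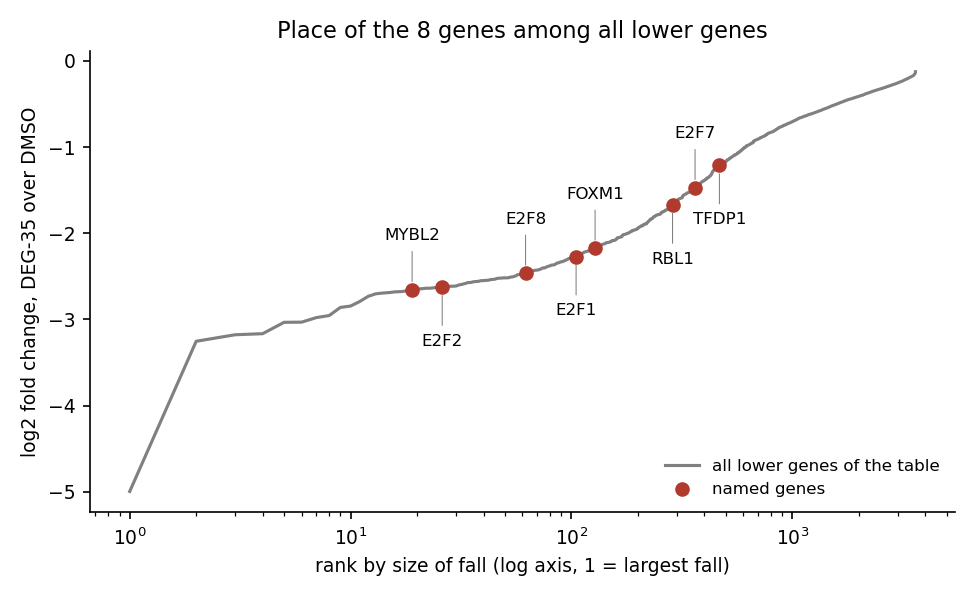
Log2 fold change (y axis, DEG-35 over DMSO) of all 3613 lower genes in the authors' deposited table against their rank by size of fall (x axis, log scale). Red points are the 8 genes, which lie between rank 19 for MYBL2 and rank 468 for TFDP1.

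The rest of the pathway was counted from lists of known members. In the E2F and DP family 7 of 11 genes were listed and 7 were lower, with a median of -1.47, although E2F6 would be higher, at 0.036, if all fold changes were shifted up by 0.3. Beside the 5 genes already given and E2F3, this count holds E2F6, a repressor that works without pocket proteins, at -0.26 ± 0.111 in the authors' deposited table (adjusted p = 0.0389). The DREAM E2Fs E2F4 and E2F5, and TFDP2 and TFDP3, were not listed. In either direction 45.3% of all tested genes were listed, against 63.6% of this family. However, 5 of its 7 listed genes are among the 8 genes, which were chosen with earlier results of these data known. The share and the median of -1.47 are therefore no independent evidence about the family. Beside those 5 genes only E2F3 and E2F6 were listed, with a median of -0.29.

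The MuvB core has 5 genes, of which 4 were listed, each lower, at a median of -0.73, where 45.3% of all tested genes were listed and 24.0% lower. The lower count was 3 with an adjusted p below 0.01 or Bonferroni adjustment, reached by 19.7% and 12.0% of all tested genes. With all fold changes shifted up by 0.3, RBBP4 would be at -0.048 and LIN52 at -0.13. LIN9, whose product carries the contact for MYBL2 in the core, stood at -1.39 ± 0.0891 in the authors' deposited table (adjusted p = 2.57e-53). LIN54, the subunit that binds the CHR element in DNA, stood at -1.03 ± 0.0951 there (adjusted p = 4.85e-26). The histone-binding subunit RBBP4 was at -0.35 ± 0.0615 and LIN52, which is phosphorylated when DREAM forms, at -0.43 ± 0.186 in the authors' deposited table, with adjusted p-values of 9.65e-08 and 0.0457. LIN37 was not listed. In the MYB family MYBL1 stood at -1.96 ± 0.224 in the authors' deposited table (adjusted p = 2.97e-17), and MYB itself, a regulator of blood progenitors, was not listed.

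Of 15 forkhead genes counted beside one another 6 were listed, 4 lower and 2 higher, although FOXN2 would turn higher, at 0.0043, with all fold changes shifted up by 0.3, and FOXO3 lower, at -0.075, with a shift down. This is 40.0% of the list, less than the background of 45.3%. FOXM1 had the largest fall of the 6, and the other 5 had a median of -0.30. FOXP4 was at -0.83 ± 0.113 (adjusted p = 3.02e-12) and FOXN3 at 0.33 ± 0.0657 (adjusted p = 2.76e-06) in the authors' deposited table. No test was made of FOXM1 against these genes.

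Upstream of the RB proteins the G1 cyclins and kinases went both ways. Of 12 genes 9 were listed, 5 lower and 4 higher. Over all tested genes 45.3% were listed, 24.0% lower and 21.4% higher. The higher count fell to 2 with an adjusted p below 0.01 or Bonferroni adjustment, and to 0 with a change of at least 1 on the log2 scale, which 4 of the lower genes kept. Of the 4 higher genes 2, CCND3 and CDK6, would be lower, at -0.13 and -0.14, with all fold changes shifted down by 0.3. The D-type cyclins, which answer to growth signals, were higher: CCND1 at 0.89 ± 0.151 (adjusted p = 2.57e-08), CCND2 at 0.67 ± 0.0646 (adjusted p = 1.30e-23) and CCND3 at 0.17 ± 0.0744 (adjusted p = 0.0467) in the authors' deposited table. Their kinase partners differed, with CDK4 at -0.41 ± 0.0551 (adjusted p = 7.15e-13) and CDK6 at 0.16 ± 0.0640 (adjusted p = 0.0322) in the authors' deposited table. The E-type cyclins, which are E2F targets, were lower: CCNE1 at -1.09 ± 0.103 (adjusted p = 6.20e-25) and CCNE2 at -1.78 ± 0.0868 (adjusted p = 8.27e-92) in the authors' deposited table. So were their partner CDK2, at -1.63 ± 0.0719, and the CDK2-activating phosphatase CDC25A, at -2.33 ± 0.0877, with adjusted p-values of 1.64e-111 and 9.33e-154 in the authors' deposited table.

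Among the CDK inhibitors 4 of 7 were listed, 3 lower and 1 higher, beside 24.0% lower and 21.4% higher over all tested genes. The higher one was CDKN1A, the p53-induced inhibitor p21 that keeps pocket proteins active, at 1.91 ± 0.0579 in the authors' deposited table (adjusted p = 1.18e-235). CDKN2C, an inhibitor of CDK4 and CDK6, stood at -1.12 ± 0.0702, CDKN2D at -0.64 ± 0.128 and CDKN1B at -0.42 ± 0.0753 in the authors' deposited table, with adjusted p-values of 2.76e-55, 3.33e-06 and 1.24e-07.

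The targets counted in a pair of hand-made lists were lower, as were 24.0% of all tested genes. The list of 36 G1/S genes known as E2F targets was lower in full, from -2.55 for MCM10 to -1.14 for SLBP in the authors' deposited table, with a median of -2.00. MCM4, a subunit of the replicative helicase, was at -2.08 and RRM2, the ribonucleotide reductase subunit, at -2.52 ± 0.0671 in the authors' deposited table. MCM10, a helicase activator, had an SE of 0.0731 and, after MCM4 and RRM2, the smallest adjusted p of the list, 1.29e-262, in the authors' deposited table. So was the list of 33 G2/M genes known as targets of MuvB with MYBL2 and FOXM1, whose median was -2.36. They ran from -2.67 ± 0.0740 for the mitotic kinase CDK1 to -0.88 ± 0.0729 for CKS2, a CDK-binding subunit, in the authors' deposited table. TOP2A, which untangles chromosomes, was at -2.51 and NUSAP1, a spindle protein, at -2.34 ± 0.0678 in the authors' deposited table, and no SE can be had for MCM4 and TOP2A, whose p-values are given as 0. These lists were made with earlier results of these data known and are no independent evidence of direction.

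**Figure D3:**
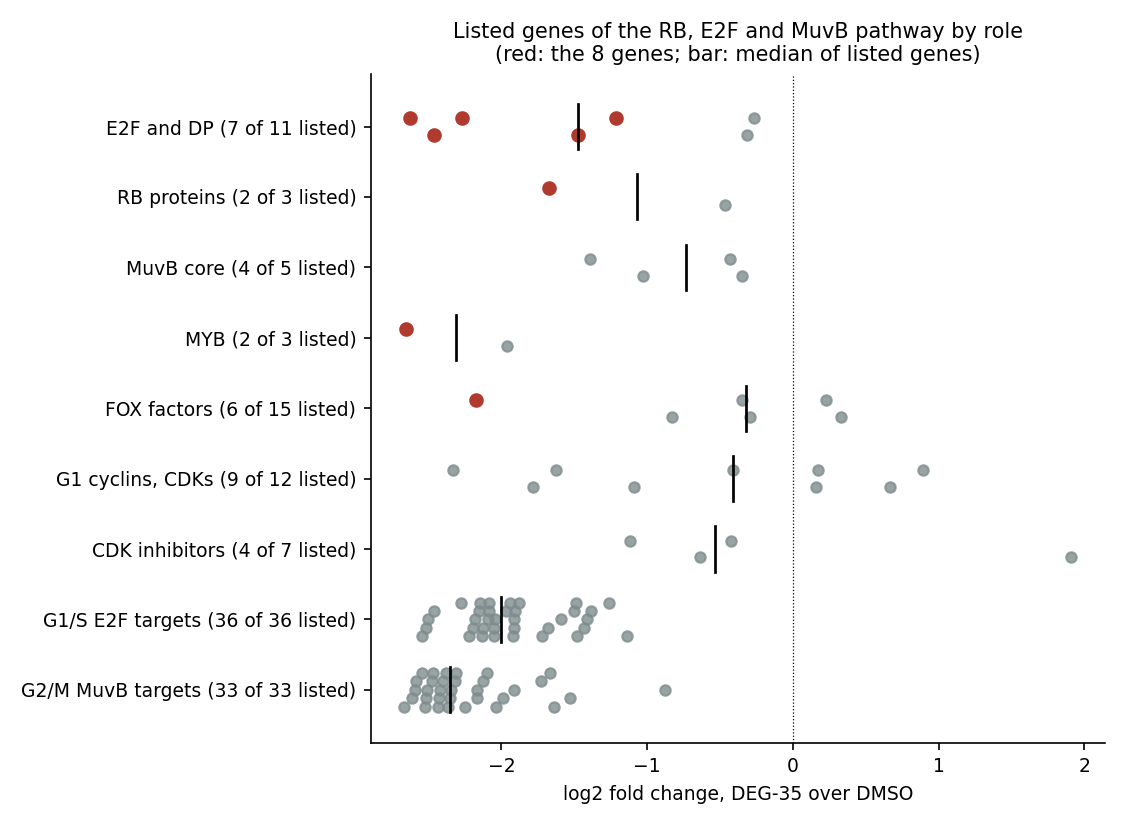
Log2 fold change (x axis, DEG-35 over DMSO) of each listed gene of the RB, E2F and MuvB pathway, grouped by role (y axis, with the number listed). Red points are the 8 genes and black bars the median of the listed genes of each role. The G1/S and G2/M targets lie between -2.67 and -0.88, while cyclins, kinases and inhibitors lie on both sides of 0.

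Promoters were read because all 8 genes were lower and several are known E2F targets. Since these targets were known beforehand, the motif counts below are no independent evidence of control by E2F. RefSeq promoter windows of the build GRCh38.p14, from 250 bases before to 50 bases after the gene start, were matched for 6 of the 8 genes. E2F8 and FOXM1 had no match. Each window was searched on both strands for 4 spellings of the E2F motif, namely TTGGCGC, its variant TTCCCGC, the mixed form TTGCCGC and the reverse mix TTCGCGC. It was also searched for the CHR element TTTGAA, which LIN54 binds, and for the NF-Y box CCAAT. A match is a description of the letters and does not show binding.

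An E2F motif was found in 5 of the 6 windows, those of E2F1, E2F2, E2F7, TFDP1 and RBL1, and in 13.1% of all 27305 promoters of this length. The count was 3 of 6 on the gene's own strand alone and 3 of 6 in the 100 bases nearest the start, against 7.09% and 4.76% of all promoters. By spelling, TTGGCGC was in 4 of the 6, against 3.12% of all promoters. The spelling TTCCCGC was in 0 of the 6, against 6.56% of all promoters, 16.3% of those of lower genes and 48.3% of those of the G1/S targets given later. Of the other two spellings, TTGCCGC was in 2 windows and 2.35% of all promoters. The last, TTCGCGC, was in 2 windows and 2.30% of all promoters. In E2F1, E2F2 and RBL1 the matches began within 41 bases of the start: at 33 and 19 bases before it in E2F1, at 41 in E2F2, and at 25 and 15 in RBL1. In E2F7 they began at 176 and 133 bases before the start and in TFDP1 at 120. MYBL2 had none of the 4 spellings. A further E2F-like spelling, GGCGGGA, chosen after the sequences had been seen, was found there at 39 bases before the start, and in 15.5% of all promoters. The windows of the 6 genes had a median GC content of 72.0%, against 58.3% over all promoters, and the part of base composition in these shares was not tested.

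The 120 bases before the start are shown for the 4 genes with a match close to it, 5′ to 3′ on the gene's strand, with matches to the E2F or added E2F-like spellings on either strand in capitals. They lie on the GRCh38.p14 build at chr20:33686386-33686505 (minus strand) for E2F1, chr1:23531234-23531353 (minus) for E2F2, chr20:37095998-37096117 (minus) for RBL1 and chr20:43666994-43667113 (plus) for MYBL2.
E2F1: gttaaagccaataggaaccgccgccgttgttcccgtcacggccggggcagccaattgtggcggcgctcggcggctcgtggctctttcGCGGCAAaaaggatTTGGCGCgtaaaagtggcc
E2F2: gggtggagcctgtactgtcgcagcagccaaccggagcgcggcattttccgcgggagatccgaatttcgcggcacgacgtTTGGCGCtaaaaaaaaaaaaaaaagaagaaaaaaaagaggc
RBL1: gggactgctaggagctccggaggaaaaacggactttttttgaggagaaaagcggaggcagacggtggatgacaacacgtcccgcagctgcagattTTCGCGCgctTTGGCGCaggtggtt
MYBL2: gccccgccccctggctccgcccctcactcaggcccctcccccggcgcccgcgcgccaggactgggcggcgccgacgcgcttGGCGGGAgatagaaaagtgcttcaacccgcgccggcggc

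**Figure D4:**
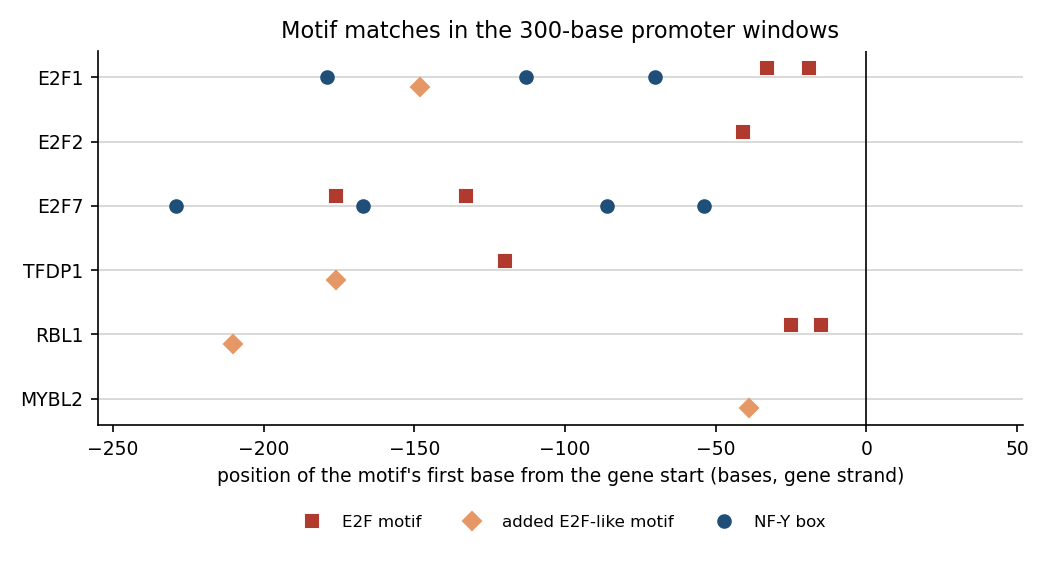
Matches to the E2F motif, the added E2F-like spelling and the NF-Y box along the promoter windows of 6 genes. The x axis is the position of the first base of the match from the RefSeq gene start, in bases on the gene's strand. E2F motifs lie within 41 bases of the start in E2F1, E2F2 and RBL1 and farther out in E2F7 and TFDP1.

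The CHR element, searched only as TTTGAA, was in none of the 6 windows and in 15.4% of all promoters. The NF-Y box was in 2 of the 6, with 3 matches in E2F1 and 4 in E2F7, and in 35.7% of all promoters. Of the 29 G1/S target promoters matched, 72.4% held an E2F motif, 3.45% a CHR element and 62.1% an NF-Y box. Of the 28 G2/M target promoters matched, 28.6% held an E2F motif, 64.3% a CHR element and 82.1% an NF-Y box. No test was made between these sets. Over the table, 29.4% of 2763 promoters of lower genes and 15.1% of 2224 promoters of higher genes held an E2F motif, with median GC contents of 66.0% and 63.7%.

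**Figure D5:**
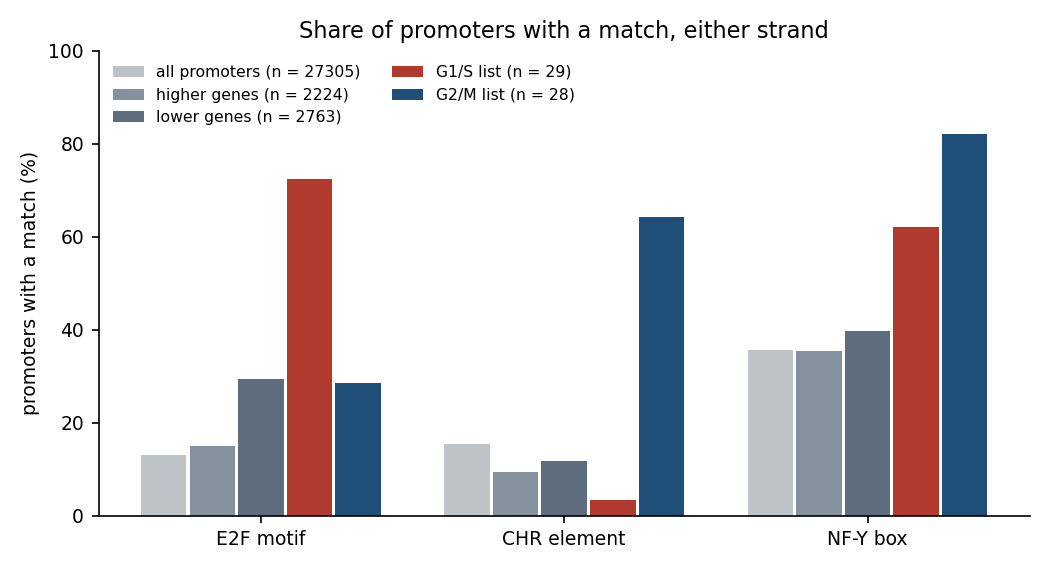
Share of 300-base promoter windows (y axis, percent) with a match on either strand to the E2F motif, the CHR element or the NF-Y box. Bars are all promoters, the higher and lower genes of the authors' deposited table, and the G1/S and G2/M target lists, with the number of promoters in the legend. The G1/S bar is the tallest for the E2F motif at 72.4%, and the G2/M bar for the CHR element at 64.3%.

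Some of the genes share their locus with others, which bears on how reads were assigned. In GENCODE release 29 RHNO1, a gene of the DNA damage checkpoint, lies head to head with FOXM1 and overlaps it by 898 bases on the other strand. The outermost annotated start of TULP3 is 68 bases from that of FOXM1. RHNO1 stood at -0.88 ± 0.0871 (adjusted p = 1.10e-22) and TULP3 at -0.70 ± 0.109 (adjusted p = 8.81e-10) in the authors' deposited table, both smaller falls than that of FOXM1. ITFG2 overlaps the other end of FOXM1 by 2111 bases and was not listed. An antisense gene, AC009652.2, spans all 17558 bases of E2F8, and another, AL136172.1, overlaps the start of RBL1 by 211 bases. Neither was listed under these names. The sources used here do not say whether the authors counted reads by strand, so the values of E2F8, FOXM1, RBL1 and RHNO1 may include reads of an overlapping gene.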

How the data were processed

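RNA-seq libraries of MOLM-13 cells, 3 with DMSO and 3 with DEG-35, were made with a SMARTer mRNA kit, per the labels' protocols. The submitters' processing notes name the build hg19 and, as tools, DESeq2, featureCounts and STAR, with no version or setting. The authors' deposited table holds, per the file headers, log2 fold changes, p-values and adjusted p-values, all below an adjusted p of 0.05. Depth per library is unknown, and no interval that needs it is given. Groups follow the sample titles. Calls are the deposited adjusted p-values, since single genes could not be retested. For the 2789 genes with a p above 1e-04, adjusted p times rank over p lay within 0.1% of 15064, the number of tests that a Benjamini-Hochberg adjustment implies. The implied SE is the absolute log2 fold change over the normal quantile of the two-sided p, which assumes a Wald test. Both steps were run on simulated data made under the same assumptions. That run checks the code and cannot test whether the assumptions hold for the deposited values. The 8 genes and the 9 lists were chosen with earlier results of these data known. The genes named are the 8, every listed gene of the short lists, from each longer list its 3 smallest adjusted p-values and the leading gene against the majority, and overlapping genes. The lowest and highest member of the target lists were added after their values were seen. No listed gene needed a synonym to match. RefSeq promoters are on GRCh38.p14, while the notes name hg19, so coordinates and sequences describe the reference, not the reads. GENCODE release 29 was used for overlaps only. Alternatives were stricter calls, all fold changes moved up or down by 0.3 (log2), a maximum implied SE of 0.2, exact symbols, and other strands and windows for motifs. Scripts ran in Python 3.11.15 with SciPy 1.17.1, NumPy 2.4.6, pandas 2.3.3 and, for plots, Matplotlib 3.10.9.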

Additional observations from a re-analysis of the deposited data

How the results depend on the processing

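All 8 genes stayed lower and past the threshold with an adjusted p below 0.01, a fall of at least 1 on the log2 scale, Bonferroni adjustment over 15064 tests and all fold changes moved up or down by 0.3 (log2); a shift of more than 1.21 would be needed to turn TFDP1. The shift was applied to listed genes alone. When a change of at least 1 on the log2 scale was required, the lower count went from 2 to 1 for RB pocket proteins, from 4 to 2 for the MuvB core, from 3 to 1 for CDK inhibitors and from 4 to 1 for forkhead genes, while the higher count went from 4 to 0 for G1 cyclins and CDKs and from 2 to 0 for forkhead genes. Over all tested genes the lower share went from 24.0% to 4.08% with the same requirement. The higher share at that setting was not counted. Bonferroni adjustment left 2 lower and 1 higher forkhead genes and 2 higher G1 cyclins and CDKs, as did an adjusted p below 0.01 for the latter; these settings are stricter by construction. The shift up turned E2F6 to 0.036 and FOXN2 to 0.0043, and the shift down turned CCND3 to -0.13, CDK6 to -0.14 and FOXO3 to -0.075. On the gene's own strand alone 3 of the 6 promoters held an E2F motif and 1 an NF-Y box, and in the 100 bases nearest the start 3 and 0 did, as a smaller search allows fewer matches. Over all promoters the share with an NF-Y box was 20.8% on the own strand and 11.1% in the nearest 100 bases. With the added spelling 6 of 6 held an E2F or E2F-like motif, a choice made after seeing the sequences. No paired analysis was possible because the authors' deposited table has no per-library columns, and for the same reason leaving out replicates, DESeq2 or edgeR refits and other count filters were not run. Unknown depth limits what can be said of genes that are not listed.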
